A study of Rattus norvegicus with 145 samples.

Results

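Liver RNA-Seq of vehicle-treated female Wistar rats was compared between the 2 collection days of a 28-day acetamide study, to describe how the livers of control rats differed after about 3 weeks more of gavage, housing and age. The members were the female rats labelled with a dose of 0, 5 collected on day 8 and 5 on day 29, or 10 of the 145 rats of the series. Both groups were female Crl:WI rats, labelled as aged 8 to 10 weeks, gavaged daily with the water vehicle alone for 7 or for 28 days. The left liver lobe was taken 24 h after the final gavage and an overnight fast, and rats were killed in a randomised sequence. No rat in either group received acetamide, and each rat was measured on 1 day only, so no animal was followed over time. Each day was deposited as a separate count table, and age, days of gavage and any difference between the tables in handling or sequencing cannot be told apart.

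The liver of a young adult rat makes most plasma proteins, converts amino acids, fats, sugars and bile acids, and detoxifies foreign compounds. Most of its RNA comes from hepatocytes, while stellate cells store vitamin A and make much of the collagen matrix, and Kupffer cells are its resident macrophages. Many hepatocyte genes also follow feeding, the daily clock, handling stress and the sex-specific pattern of growth hormone release, so that single control rats can differ from each other.

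Reads on genes numbered 22945748 to 34018491 per rat, and 35.5 to 50.1% of the reads of a rat fell on no gene, with the highest share in day 8 rat 4. Correlations of log2 CPM, counts scaled to library size, were 0.962 to 0.990 within a day and 0.959 to 0.986 between days, so the ranges overlapped. Day 29 rats 4 and 5 stood apart by their albumin share, which was 21.6 and 21.9% of reads on genes against 13.0 to 17.3% in the other rats. Hepatocyte markers were high in every rat, and all 10 of them were detected. Of 8 skeletal muscle markers 2 were at 0 and 6 stayed under 1 CPM, and summed markers of T and NK cells reached 61.8 CPM at most. Of 9 exocrine pancreas markers 4 were at 0, with a summed level of 30.2 to 204 CPM on day 8 and 38.8 to 250 CPM on day 29.

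No gene was called differentially expressed between day 8 and day 29 (|fold change| of at least 1.5 and adjusted p of at most 0.05, edgeR quasi-likelihood test with Benjamini-Hochberg adjustment). Of 10891 genes tested, 0 were called, 0% of the background, although 1639 genes, or 15.0%, had an unadjusted p under 0.05. The lowest adjusted p was 0.126, shared by 15 genes. The 5 rats of day 29 lay above all 5 of day 8 for 133 genes (1.22%) and below them for 165 (1.52%). The same counts gave 170 differentially expressed genes with DESeq2, 52 higher and 118 lower on day 29, which was 1.62% of the 10478 genes with an adjusted p. A fit of all 60 female rats of both days and every dose, with a shared estimate of the spread, called 111 genes, 0.952% of 11657. A fit of the 20 vehicle rats of both sexes called 88 (0.784% of 11224), and one of the 30 vehicle, 300 and 500 mkd females with dose as a covariate called 300 (2.68% of 11198), both chosen after seeing the data. Of the calls also tested with the 10 rats alone, 81 were shared, 47.9% of those of DESeq2 and 76.4% of those of the 60-rat fit. The values below missed the threshold of the edgeR test of the 10 rats and are given with their standard errors, and "higher" or "lower" gives a direction and not a call.

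The 24 genes shown first are the 12 highest and 12 lowest by log2 fold change among those with a mean of at least 1 CPM whose days did not overlap. They were chosen after their values were seen, and their separation is therefore a description. Their adjusted p lay between 0.126 and 0.228, while DESeq2 called 23 of them and the 60-rat fit 13.

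**Figure D1:**
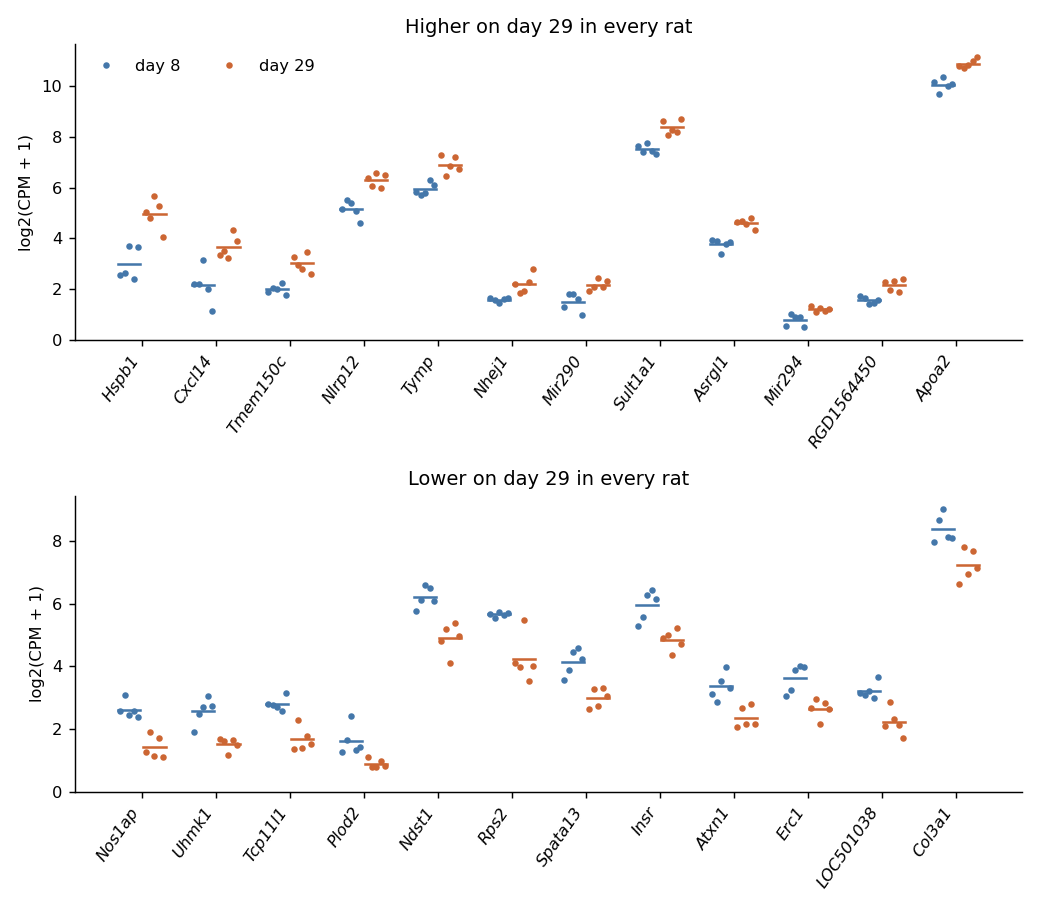
Level of the 24 most separated genes in each vehicle female, as log2(CPM + 1); each point is a rat (blue, day 8; orange, day 29; 5 rats a day) and the bar is the mean of the 5 log2 values. For every gene all 5 rats of a day lie on the same side of the other 5, and the log2 fold change is largest for Hspb1, from 4.32 to 12.1 CPM on day 8 and from 15.7 to 49.9 CPM on day 29.

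Hspb1, which encodes the small heat shock protein HSP27, had the largest difference. Its level was 4.88, 5.18, 12.1, 4.32 and 11.6 CPM in day 8 rats 1 to 5, and 31.5, 27.1, 49.9, 37.2 and 15.7 CPM in day 29 rats 1 to 5. Every day 29 rat was above every day 8 rat, with rat 5 the lowest of day 29. The log2 fold change was 2.08 ± 0.36 (SE, n = 5 per day; edgeR adjusted p = 0.126, DESeq2 adjusted p = 2.26e-05). Without day 29 rats 4 and 5 it was 2.24.

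The promoter of Hspb1 is printed with those of Hspb8 and Dnajb1, a small heat shock protein and an HSP40 co-chaperone that also had an unadjusted p under 0.05, as examples of windows that hold letters of the heat shock element. The windows are from RefSeq on GRCr8 and cover 250 bases before and 50 after the gene start, and capitals mark each match to the element core GAANNTTC or TTCNNGAA, both of which read the same on either strand. Hspb1 lies at chr12:26432252-26432551 on the minus strand, Hspb8 at chr12:45837058-45837357 on the plus strand and Dnajb1 at chr19:41431092-41431391 on the minus strand.
Hspb1: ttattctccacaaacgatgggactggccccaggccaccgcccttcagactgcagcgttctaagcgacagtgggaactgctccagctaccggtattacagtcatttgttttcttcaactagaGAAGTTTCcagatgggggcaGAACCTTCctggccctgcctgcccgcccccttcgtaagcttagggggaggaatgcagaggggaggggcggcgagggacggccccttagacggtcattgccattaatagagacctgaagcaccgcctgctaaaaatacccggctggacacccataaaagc
Hspb8: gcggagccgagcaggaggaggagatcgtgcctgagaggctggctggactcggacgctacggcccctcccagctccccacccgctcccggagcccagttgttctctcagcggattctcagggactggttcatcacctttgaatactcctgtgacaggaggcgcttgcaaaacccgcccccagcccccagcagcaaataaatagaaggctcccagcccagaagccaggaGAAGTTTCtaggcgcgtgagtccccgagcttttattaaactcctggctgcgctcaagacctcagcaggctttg
Dnajb1: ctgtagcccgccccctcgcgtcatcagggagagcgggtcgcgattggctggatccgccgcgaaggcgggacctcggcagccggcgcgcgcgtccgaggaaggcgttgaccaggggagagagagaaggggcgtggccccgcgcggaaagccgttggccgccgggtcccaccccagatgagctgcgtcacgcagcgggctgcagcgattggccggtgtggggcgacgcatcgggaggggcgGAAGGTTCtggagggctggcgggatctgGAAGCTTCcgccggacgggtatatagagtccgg

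Hspb1 held matches starting 129 and 109 bases before the start, and Hspb8 held a match 23 bases before it. Of the 29 tested heat shock and chaperone genes with a promoter in the table, 10 held either core in any of their windows (34.5%). Of all 33365 promoter windows 15.8% did. The first share is counted per gene and the second per window, so they are not directly comparable. A match describes letters and is not a site.

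Among the other higher genes, Cxcl14, a chemokine, had 3.68, 3.66, 7.92, 3.09 and 1.23 CPM on day 8 and 9.27, 10.4, 8.45, 19.4 and 13.7 CPM on day 29. Its log2 fold change was 1.65 ± 0.39 (SE, n = 5 per day; edgeR adjusted p = 0.174). Day 8 rat 3 and day 29 rat 3 were nearly level, and the other rats were further apart. Sult1a1, a phenol sulfotransferase that conjugates drugs and hormones, had 195, 170, 217, 174 and 157 CPM on day 8 and 390, 268, 304, 288 and 416 CPM on day 29, or 0.87 ± 0.16 on the log2 scale (adjusted p = 0.126). Apoa2, an apolipoprotein of high-density lipoprotein, had 805 to 1304 CPM on day 8 and 1642 to 2209 CPM on day 29 (log2 fold change 0.82 ± 0.15). Tymp, a thymidine phosphorylase, and Asrgl1, an asparaginase-like enzyme, were higher by 0.98 ± 0.18 and 0.86 ± 0.14. Tmem150c (1.28 ± 0.21), Nhej1 (0.91 ± 0.23), a factor of DNA end joining, and RGD1564450 (0.83 ± 0.19) completed the group of protein-coding or uncharacterised genes.

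Nlrp12, an innate immune sensor, had 34.9, 44.8, 41.5, 33.0 and 23.6 CPM on day 8 and 81.9, 66.2, 93.0, 62.7 and 90.1 CPM on day 29 (1.15 ± 0.18, adjusted p = 0.126). The microRNA genes Mir290 (0.90 ± 0.26) and Mir294 (0.86 ± 0.27) lie within its span on GRCr8, and in a library of polyadenylated RNA their counts cannot be told apart from reads of the surrounding transcript. Mature microRNA was not measured. Their RefSeq mature sequences are printed, with the seed (bases 2 to 8) in capitals, to show that these printed sequences do not share a seed. Other mature sequences from these genes or their neighbours were not compared. Mir290 lies at chr1:74880106-74880123 and Mir294 at chr1:74878137-74878157, both on the minus strand.
rno-miR-290: uCUCAAACuaugggggca
rno-miR-294: cUCAAAAUggaggcccuaucu

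Among the lower genes, Nos1ap, an adaptor of neuronal nitric oxide synthase, had 4.98, 7.46, 4.51, 5.02 and 4.30 CPM on day 8 and 1.44, 2.73, 1.23, 2.31 and 1.17 CPM on day 29. Its log2 fold change was -1.56 ± 0.27 (SE, n = 5 per day; edgeR adjusted p = 0.126), and the 60-rat fit gave an adjusted p of 0.0022. Uhmk1, a serine/threonine kinase, differed by -1.44 ± 0.26 and Tcp11l1 by -1.39 ± 0.25. Ndst1, which sulfates heparan sulfate, had 53.3 to 96.2 CPM on day 8 and 16.4 to 40.7 CPM on day 29 (-1.32 ± 0.23). Spata13 (-1.26 ± 0.22), a guanine nucleotide exchange factor, Atxn1 (-1.16 ± 0.26), the ataxin-1 gene, Erc1 (-1.13 ± 0.24) and LOC501038 (-1.13 ± 0.25) were of like size. Rps2, a ribosomal protein gene with processed copies that can split its reads, was at 45.8 to 52.0 CPM in all day 8 rats, but on day 29 rat 3 had 43.1 CPM and the other rats 10.6 to 16.4 CPM (-1.31 ± 0.31). Plod2, a lysyl hydroxylase of collagen (-1.33 ± 0.33), was at 1.43 to 4.33 CPM on day 8 and 0.735 to 1.19 CPM on day 29. The insulin receptor and Col3a1 are described with their pathways.

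Lower genes were longer than higher genes. The median gene span, from start to end on the RefSeq annotation of GRCr8, was 64.7 kb for 162 genes lower in all day 29 rats and 9.81 kb for 132 genes higher in all of them, against 23.3 kb for all genes tested with a span. The median log2 fold change was 0.22 for 586 genes of up to 3 kb, 0.14 for 2084 genes of 3 to 10 kb and 0.03 for 3603 genes of 10 to 30 kb. It was -0.10 for 3118 genes of 30 to 100 kb, -0.21 for 1101 genes of 100 to 300 kb and -0.28 for 242 genes of more than 300 kb. Unadjusted p were under 0.05 with a higher level on day 29 for 23.4% of the shortest class and 0.826% of the longest, and with a lower level for 2.22% and 23.1%. The build of the spans differs from that of the counts, and span includes introns and is not transcript length.

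The gradient was also present rat by rat. The slope of a rat's log2 level, relative to the mean of the 10 rats, on log10 of span was -0.06, 0.08, 0.15, 0.21 and 0.15 in day 8 rats 1 to 5, and -0.13, -0.06, -0.25, 0.01 and -0.11 in day 29 rats 1 to 5. Day 29 rats lay below all day 8 rats in 4 of 5 cases, day 29 rat 4 and day 8 rat 1 being the exceptions. The measure was chosen after the gradient had been seen, and its values are a description. In rats that did not enter this comparison, the medians for the shortest and longest class were 0.14 and -0.14 in 300 and 500 mkd acetamide females, and 0.05 and -0.11 in vehicle males. With span removed as an offset, the medians lay between 0.01 and 0.04 in every class, which follows from how the offset was fitted. Hspb1 (1.85), Nos1ap (-1.33) and Insr (-0.95), named for their size, kept their direction.

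**Figure D2:**
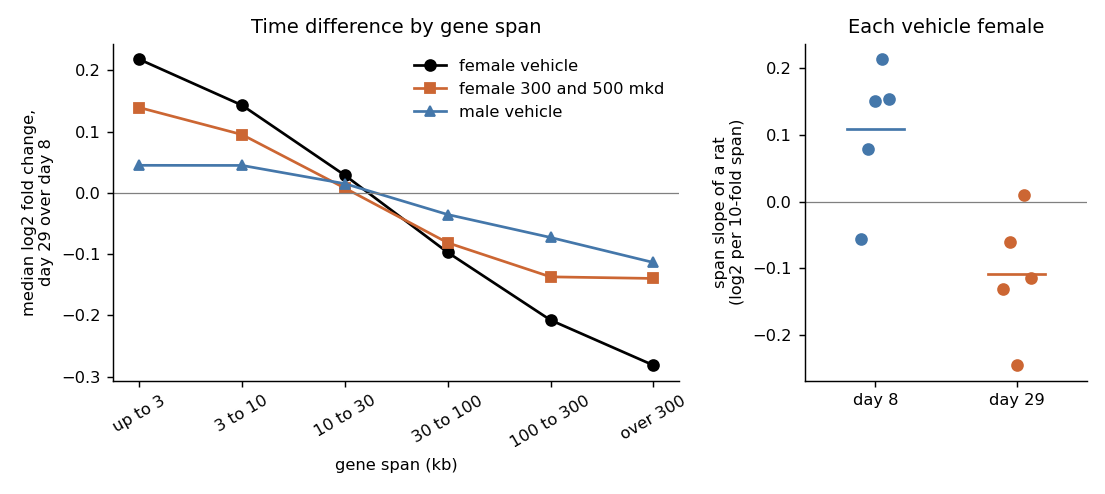
Left, median log2 fold change between day 29 and day 8 by class of gene span (kb) in vehicle females, 300 and 500 mkd females and vehicle males; right, span slope of each vehicle female (log2 per 10-fold span; points are rats, bars are means). Medians decline from 0.22 to -0.28 in vehicle females and decline less in the other rats.

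Genes of the extracellular matrix were mostly lower on day 29. Of 32 collagen and matrix genes in the files, 28 passed the filter on low counts, and 25 of these were lower; 15 (53.6%) were lower with an unadjusted p under 0.05, against 7.95% of all genes, and 0 were higher. Their median log2 fold change was -0.52, against 0.00 for all genes, and it was -0.48 with span removed. Col3a1, a chain of fibrillar collagen, had 248, 405, 516, 274 and 269 CPM on day 8 and 98.1, 221, 123, 201 and 139 CPM on day 29 (log2 fold change -1.13 ± 0.26, SE, n = 5 per day; edgeR adjusted p = 0.174, DESeq2 adjusted p = 0.00767). All day 29 rats lay below all day 8 rats.

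Other fibrillar collagens were lower too. Col1a1 had 6.54, 18.6, 28.5, 9.83 and 13.2 CPM on day 8 and 4.49, 6.58, 10.5, 7.46 and 3.04 CPM on day 29, a difference of -1.25 ± 0.40 with overlapping days. Col5a2 was at 16.8 to 32.5 and 11.1 to 15.0 CPM without overlap (-0.79 ± 0.19). Among other matrix proteins, the microfibril protein gene Fbn1 differed by -1.03 ± 0.24, fibronectin Fn1 by -0.66 ± 0.18 and the proteoglycans Bgn and Dcn by -0.59 ± 0.18 and -0.70 ± 0.26. Basement membrane collagen Col4a1 differed by -0.80 ± 0.33. Of the enzymes, the collagenase Mmp2 had 8.89 to 13.9 CPM on day 8 and 4.06 to 8.60 CPM on day 29 (-0.88 ± 0.20), and the lysyl oxidase Loxl2 and the membrane protease Mmp14 differed by -1.06 ± 0.37 and -0.50 ± 0.18. Sparc, a matrix-binding protein, was at 112 to 187 and 54.5 to 150 CPM (-0.45 ± 0.25).

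Stellate cell and fibroblast markers moved with the matrix list, and they share Col1a1 and Col3a1 with it. Of 10 markers tested, 6 (60.0%) were lower and 1 (10.0%) higher with an unadjusted p under 0.05, against 7.95% and 7.10% of all genes. The summed level of the markers was 384 to 690 CPM on day 8 and 171 to 360 CPM on day 29. Reln, a secreted marker of quiescent stellate cells, differed by -0.91 ± 0.25, the growth factor receptor Pdgfrb by -0.58 ± 0.19 and Lrat, which stores vitamin A as retinyl ester, by -0.42 ± 0.16. Acta2, smooth muscle actin, was higher by 0.75 ± 0.30. In bulk liver, fewer cells of a type and less RNA per cell cannot be told apart. Endothelial and Kupffer cell markers had medians of 0.11 and -0.10. Of 13 Kupffer cell markers, 1 was higher and 1 lower with an unadjusted p under 0.05 (7.69% each), near the shares of all genes. Lyz2, a lysozyme, was higher (0.55 ± 0.15) and Csf1r, the receptor of macrophage colony-stimulating factor, lower (-0.47 ± 0.20). Of 6 bile duct cell markers, 2 (33.3%) were higher and 0 lower with such a p, against 7.10% and 7.95% of all genes. Krt19 and Muc1 were higher by 0.78 ± 0.25 and 0.72 ± 0.22. The summed level of the bile duct cell markers was 10.2 to 15.8 CPM on day 8 and 12.1 to 21.5 CPM on day 29. The part of cell mix in these differences was not tested.

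**Figure D3:**
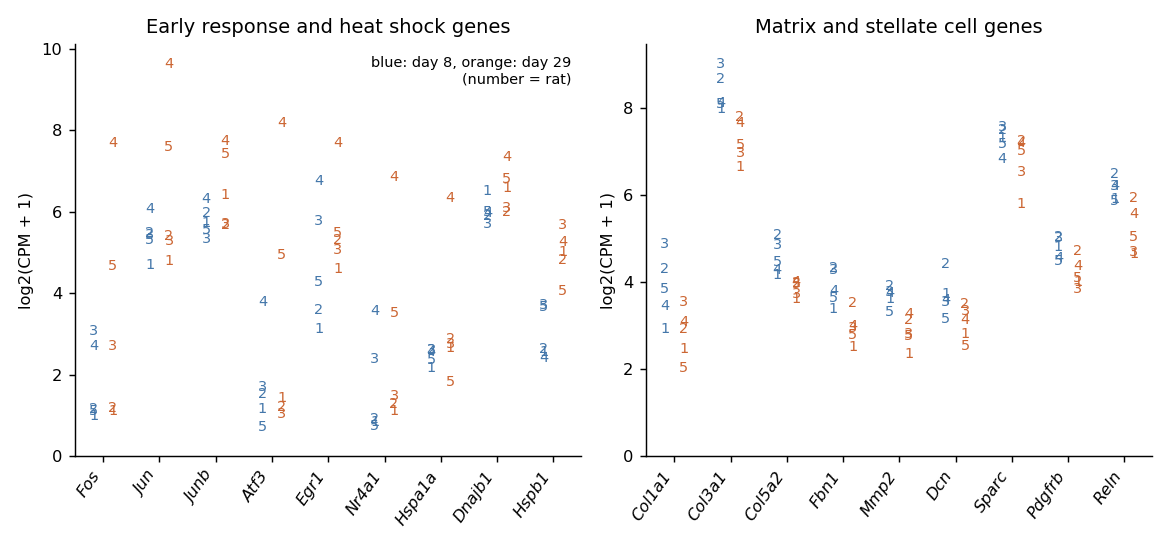
Level of stress response genes (left) and of matrix and stellate cell genes (right) in each rat, as log2(CPM + 1), with the rat's number printed at its value (blue, day 8; orange, day 29). Left, day 29 rats 4 and 5 lie above the others for Fos, Jun and Atf3; right, the day 29 rats lie lower for most genes with no single rat apart.

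Insr, the insulin receptor, had 38.2, 46.6, 76.6, 84.8 and 70.2 CPM on day 8 and 28.8, 31.1, 19.5, 36.3 and 25.0 CPM on day 29 (log2 fold change -1.17 ± 0.23, SE, n = 5 per day; edgeR adjusted p = 0.136, DESeq2 adjusted p = 0.00138). The days did not overlap, and day 8 rats 1 and 2 were closest to day 29. Foxo1, a transcription factor restrained by insulin, differed by -0.78 ± 0.22 and Onecut1, a hepatocyte factor, by -1.03 ± 0.39. Ppara, the receptor that switches on fat oxidation during fasting, had 19.7, 16.1, 38.0, 42.9 and 44.0 CPM on day 8 and 14.4, 17.3, 11.1, 18.4 and 12.4 CPM on day 29 (-1.13 ± 0.28), so day 8 rats 1 and 2 lay within or near the day 29 range. Rxra, the common partner of PPARα and bile acid receptors, had 115 to 171 CPM on day 8 and 49.7 to 104 CPM on day 29 (-0.96 ± 0.21). The leptin receptor Lepr differed by -0.85 ± 0.21, and the nuclear factor I genes Nfix, Nfia and Nfic by -1.02 ± 0.26, -0.75 ± 0.21 and -0.80 ± 0.22. Rxra, Lepr and the nuclear factor I genes were chosen after their values were seen. The fold changes in this paragraph were computed without the gene span offset, and longer genes were generally lower on day 29.

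Of 36 genes of fat oxidation and ketogenesis, 3 (8.33%) were lower with an unadjusted p under 0.05, near the 7.95% of all genes, and 0 were higher, with a list median of -0.05. The 3 were Ppara, the ω-hydroxylase Cyp4a3 (-0.65 ± 0.29) and Cpt1a, the gate of fatty acids into mitochondria, at 846, 900, 955, 1166 and 935 CPM on day 8 and 729, 757, 675, 589 and 629 CPM on day 29 (-0.51 ± 0.13, without overlap). Acaca and Acacb, which make malonyl-CoA, were lower by -0.66 ± 0.24 and -0.94 ± 0.39, with 2 of 23 fatty acid synthesis genes lower and 2 higher (8.70% each). Of 29 glucose metabolism genes, 4 (13.8%) were lower and 3 (10.3%) higher, against 7.95% and 7.10% of all genes. The higher ones were Khk, ketohexokinase (0.57 ± 0.18), and Taldo1 and Tkt of the pentose phosphate pathway (0.34 ± 0.11 and 0.40 ± 0.17).

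In the growth hormone and IGF axis, 4 of 22 genes (18.2%) were lower with an unadjusted p under 0.05, against 7.95% of all genes, and 0 higher, and the list median was -0.17, or -0.29 without day 29 rats 4 and 5. Beside Insr these were Igf2r (-0.52 ± 0.15), which clears IGF-II, Igfbp3 (-0.42 ± 0.14), a carrier of IGF-I in plasma, and Igf1r (-0.72 ± 0.32), at under 1.24 CPM in every rat. Igf1, the main liver product of growth hormone, had 496 to 581 CPM on day 8 and 334 to 557 CPM on day 29 (-0.25 ± 0.15, adjusted p = 0.465).

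Bile acid, detoxification and amino acid genes included more higher than lower members. Of 27 bile acid genes tested, 5 (18.5%) were higher with an unadjusted p under 0.05, against 7.10% of all genes, and 0 were lower, while the list median was 0.01. Slc27a5, a bile acid CoA ligase, had 932, 752, 828, 871 and 847 CPM on day 8 and 1346, 1151, 1162, 1055 and 1350 CPM on day 29 (log2 fold change 0.52 ± 0.13, SE, n = 5 per day; adjusted p = 0.174). Hsd3b7, of the sterol ring pathway, was at 76.5 to 93.2 and 95.8 to 162 CPM (0.62 ± 0.15), also without overlap. Cyp27a1, the sterol 27-hydroxylase, and Baat, which conjugates bile acids with glycine or taurine, differed by 0.55 ± 0.16 and 0.52 ± 0.19. Cyp7a1, the rate-limiting enzyme, varied from 69.6 to 279 CPM on day 8 and from 87.8 to 426 CPM on day 29 (0.50 ± 0.48, adjusted p = 0.653). The fifth gene was the transporter Abcb1b (0.89 ± 0.36).

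Of 61 P450 and conjugation genes, 11 (18.0%) were higher and 3 (4.92%) lower with an unadjusted p under 0.05, against 7.10% and 7.95% of all genes. The list median was 0.17. After Sult1a1, the glutathione transferase Gstt1 was next, with 22.6, 19.3, 29.3, 22.1 and 26.8 CPM on day 8 and 41.3, 32.0, 44.0, 37.8 and 52.4 CPM on day 29 (0.79 ± 0.16, adjusted p = 0.136). Gstm1 and Gsta3, of other glutathione transferase classes, differed by 0.53 ± 0.15 and 1.06 ± 0.31, and Cyp2d3 by 0.88 ± 0.24. The phenobarbital-type P450 gene Cyp2b2 was lower, at 7.40 to 16.9 CPM on day 8 and 2.69 to 7.55 CPM on day 29 (-1.26 ± 0.30). These families hold near-identical copies among which reads can be split.

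Of 43 genes of amino acid catabolism and the urea cycle, 9 (20.9%) were higher and 1 (2.33%) lower with an unadjusted p under 0.05. The shares of all genes were 7.10% and 7.95%. The list median was 0.22, or 0.06 without day 29 rats 4 and 5. Hpd and Hgd, of tyrosine breakdown, differed by 0.57 ± 0.19 and 0.55 ± 0.18, the glycine methyltransferase Gnmt by 0.53 ± 0.17 and the alanine aminotransferase Gpt by 0.68 ± 0.28. Genes expressed around the central vein had 6 of 18 members higher (33.3%, against 7.10% of all genes) and 0 lower, with a median of 0.22. Glul, glutamine synthetase, was at 281 to 571 CPM on day 8 and at 768, 675, 787, 498 and 405 CPM in day 29 rats 1 to 5 (0.57 ± 0.22). Its neighbours in the same cells, the glutamate transporter Slc1a2 (0.71 ± 0.20) and the Wnt targets Notum (0.64 ± 0.25) and Sp5 (0.89 ± 0.33), were likewise highest in day 29 rats 1 and 3. Of 16 periportal genes, 1 (6.25%) was higher and 0 lower, with a median of 0.01, or -0.25 without day 29 rats 4 and 5.

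Ribosomal protein and respiratory chain genes, lists added after the data were seen, were mostly higher. Of 74 cytosolic ribosomal protein genes tested, 69 were higher. With an unadjusted p under 0.05, 37 of the 74 (50.0%) were higher and 1 (1.35%) lower, against 7.10% and 7.95% of all genes. The median log2 fold change of the list was 0.36, or 0.18 with span removed. The median span of the list was 3.13 kb, and genes of 3 to 10 kb had a median of 0.14. Rps2 was the lower gene with such a p. Rpl14 had 70.2, 58.2, 56.7, 52.2 and 58.5 CPM on day 8 and 82.2, 81.0, 96.0, 76.2 and 84.0 CPM on day 29 (0.50 ± 0.11, adjusted p = 0.174). Rps15, Rpl35 and Rpl37 also did not overlap between days (0.56 ± 0.13, 0.50 ± 0.13 and 0.68 ± 0.18). All day 29 rats lay above all day 8 rats for 6 of the 74 (8.11%) and below them for 1 (1.35%). The shares of all genes were 1.22% and 1.52%. Of 68 respiratory chain subunit genes, 33 (48.5%) were higher and 0 lower with such a p, with a median of 0.33, or 0.26 with span removed. For 0 of the 68 did all day 29 rats lie above all day 8 rats, near the 1.22% of all genes. Cox4i1 of cytochrome oxidase, which is not counted among the 68, was at 185 to 274 and 286 to 365 CPM (0.43 ± 0.13). Ndufb2 and Ndufa7 of complex I differed by 0.57 ± 0.15 and 0.58 ± 0.16. In vehicle males the medians of these lists were 0.03 and 0.02.

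**Figure D4:**
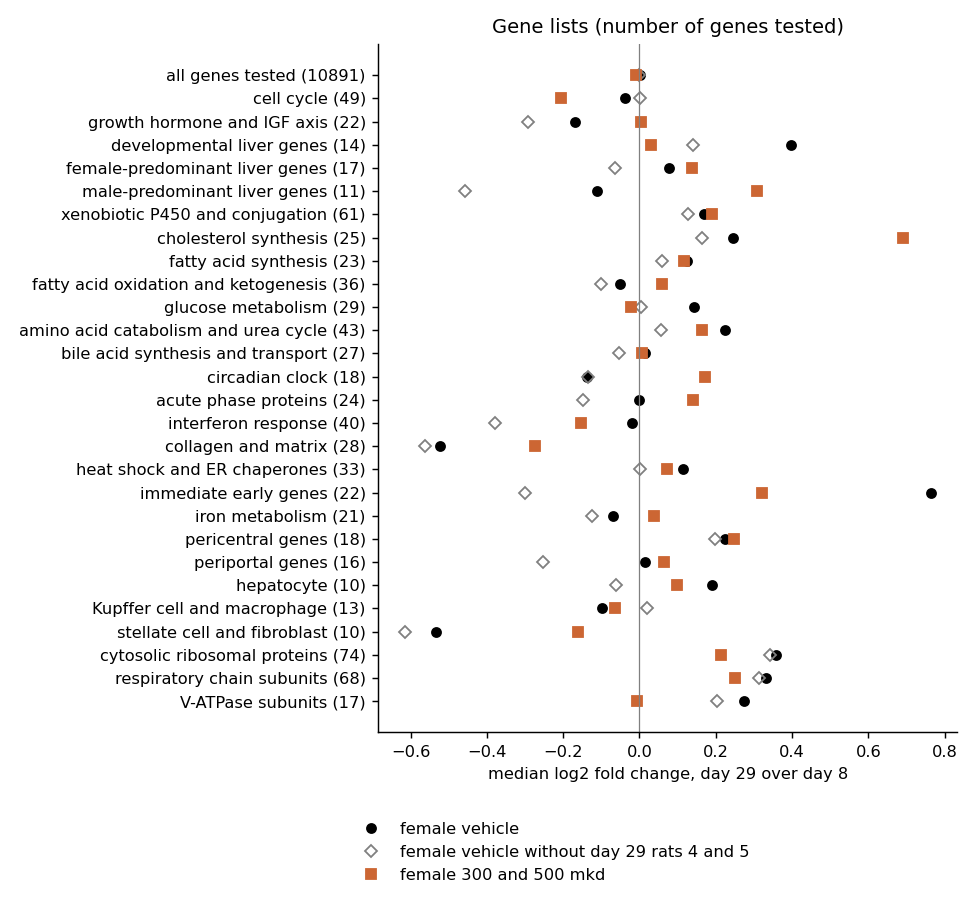
Median log2 fold change, day 29 over day 8, of each gene list with at least 10 genes tested (number in parentheses), in vehicle females, in vehicle females without day 29 rats 4 and 5, and in 300 and 500 mkd females. The collagen and matrix list lies at -0.52, ribosomal proteins at 0.36, and the immediate early genes move from 0.76 to -0.30 when the 2 rats are left out.

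Immediate early genes, many of them transcription factors, are switched on within minutes by stress or growth signals. Their list median was 0.76. Of 22 genes, 6 (27.3%) were higher and 0 lower with an unadjusted p under 0.05, against 7.10% and 7.95% of all genes. The values were high in day 29 rats 4 and 5. Fos had 0.962, 1.22, 7.41, 5.55 and 1.17 CPM in day 8 rats 1 to 5 and 1.15, 1.26, 5.50, 207 and 24.4 CPM in day 29 rats 1 to 5. Its log2 fold change was 3.89 ± 1.33 (SE, n = 5 per day; adjusted p = 0.246), and -0.31 without day 29 rats 4 and 5. Atf3 had 287 and 29.6 CPM in these rats and 0.633 to 12.9 CPM in the other 8, and Jun 798 and 191 CPM against 24.8 to 66.5 CPM. Junb had 211 and 171 CPM in them, and Nr4a1 115 and 10.4 CPM. Without these rats Atf3 was at -1.48, Jun at -0.29 and Nr4a1 at -1.24, and the list median was -0.30. Egr1 was at 207 CPM in day 29 rat 4, and day 8 rat 4 had 107 CPM.

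Some heat shock genes were also high in these rats. Of 33 heat shock and chaperone genes, 7 (21.2%) were higher and 0 lower with an unadjusted p under 0.05, against 7.10% and 7.95% of all genes. The list median was 0.11, or 0.00 without day 29 rats 4 and 5. Hspa1a, the inducible HSP70, had 80.5 CPM in day 29 rat 4 and 2.53 to 6.35 CPM in all other rats. Dnajb1 had 161 and 110 CPM in day 29 rats 4 and 5 and 51.5 to 95.0 CPM in the others, and Chac1, a glutathione-degrading target of the stress factor ATF4, had 114 and 9.35 CPM against 1.17 to 6.38 CPM. Hspb8 was at 103 to 147 CPM on day 8 and 127 to 207 CPM on day 29 (0.49 ± 0.16). Hspb1, in contrast, was highest in day 29 rat 3 and above all day 8 rats in rats 1 to 3 as well.

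Clock genes differed widely between rats of a day. Of 18 clock genes, 14 were lower and 4 higher on day 29, with a median of -0.14, and 0 had an unadjusted p under 0.05. Of all 10891 genes, 5424 were lower and 5467 higher, and 7.95% and 7.10% were so with such a p. Per1, a core clock gene that also answers to glucocorticoids, had 6.21, 4.57, 66.9, 95.8 and 3.90 CPM on day 8 and 23.7, 15.0, 28.2, 54.6 and 9.79 CPM on day 29 (log2 fold change -0.43 ± 0.84). Dbp, a clock output gene, had 167, 99.7, 18.3, 25.7 and 104 CPM on day 8, low in rats 3 and 4 in which Per1 was high, and 73.2, 53.4, 122, 18.0 and 44.0 CPM on day 29. Insr, Ppara, Onecut1 and Acacb were also higher in day 8 rats 3 and 4 than in rats 1 and 2 (Onecut1 145 and 202 against 48.7 and 85.0 CPM, and Acacb 111 and 74.3 against 26.9 and 21.4 CPM). Day 8 rat 5 did not share this pattern, since its Per1 was the lowest of the day while Ppara was the highest (44.0 CPM) and Insr (70.2 CPM), Onecut1 (111 CPM) and Acacb (54.8 CPM) were above rats 1 and 2. The part of time of day in these differences was not tested.

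Of 17 female-predominant liver genes, 2 (11.8%) were higher with an unadjusted p under 0.05, against 7.10% of all genes, and 0 lower. The list median was 0.08. Cyp2c12, the female-specific P450, had 5930, 3106, 3564, 4298 and 4926 CPM on day 8 and 5089, 3267, 2322, 4906 and 7100 CPM on day 29, a log2 fold change of 0.06 ± 0.28. Sult2a1, a hydroxysteroid sulfotransferase, differed by 0.45 ± 0.20, and A1bg, a female-predominant secreted protein, by -0.68 ± 0.34, with 14727 CPM in day 8 rat 1 and 2911 to 6837 CPM in the other 9. Of 11 male-predominant genes, 1 was higher and 1 lower with an unadjusted p under 0.05 (9.09% each), near the 7.10% and 7.95% of all genes. Cyp2a2 was lower (-1.82 ± 0.78, at 0.610 to 18.4 CPM). Stac3 was higher (2.41 ± 0.84), with 5.71 and 3.81 CPM in day 29 rats 4 and 5 and at most 0.807 CPM elsewhere.

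Cell cycle genes had 0 of 49 members with an unadjusted p under 0.05 in either direction, against 15.0% of all genes, and a median of -0.04. Mki67, a marker of dividing cells, was at 2.92 to 7.98 CPM on day 8 and 3.81 to 5.57 CPM on day 29 (-0.19 ± 0.28), and thymidine kinase Tk1 differed by 0.63 ± 0.29. Interferon response genes had 1 higher and 3 lower of 40 with an unadjusted p under 0.05, neither share above that of all genes, with a median of -0.02, or -0.38 without day 29 rats 4 and 5. The 4 were Ifi27 (0.65 ± 0.20), and the antiviral genes Oas2 (-0.67 ± 0.24), Gbp5 (-0.68 ± 0.30) and Parp14 (-0.67 ± 0.27). Acute phase genes had 3 higher (12.5%) and 1 lower (4.17%) of 24, against 7.10% and 7.95% of all genes, with a median of 0.00. Complement C3 was the lower gene, at 18808, 17244, 19240, 20923 and 17181 CPM on day 8 and 14906, 15515, 12784, 14232 and 14275 CPM on day 29, which do not overlap (-0.38 ± 0.13, adjusted p = 0.247). The higher genes included Ttr, transthyretin (0.51 ± 0.19), and Lcn2, a siderophore-binding protein (0.73 ± 0.27). Of 21 iron genes, 3 (14.3%) were lower, against 7.95% of all genes. These 3 included the ferroxidase Heph (-0.66 ± 0.21) and heme oxygenase Hmox1 (-0.70 ± 0.28). Of 25 cholesterol synthesis genes, Pmvk (0.64 ± 0.22) and Ebp (0.46 ± 0.17) were higher (8.00%, near the 7.10% of all genes), with a median of 0.24. The developmental liver list had 1 of 14 genes higher (7.14%), and the erythroid list 1 of 4 (25.0%), Alas2 of heme synthesis (0.96 ± 0.39).

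Some genes were present in single rats and near absent in others, and were chosen after their values were seen. Aldh1a7, an aldehyde dehydrogenase, had 61.2 CPM in day 29 rat 1 and at most 0.582 CPM in all other rats, and Fam111a, a serine protease gene, had 37.5 CPM in the same rat and at most 0.905 CPM elsewhere. The 60-rat fit called both (adjusted p = 0.00302 and 0.0223), and without that rat the log2 fold change of Aldh1a7 was -0.0058. Ugt2b, a glucuronosyltransferase, had 2.82, 509, 0.183, 0.699 and 735 CPM on day 8 and 2859, 871, 0.337, 1210 and 1897 CPM on day 29. Sult2a2, a hydroxysteroid sulfotransferase, had 0.804 to 1.13 CPM in 3 day 8 rats and 114 and 123 CPM in the other 2, while day 29 rat 3 had 0.599 CPM and the rest 166 to 645 CPM. Ubd, a ubiquitin-like protein, was at 0.0332 CPM in day 8 rat 1 and 0.0718 CPM in day 29 rat 1, and at 10.0 to 50.1 CPM in the other 8. Rats with low and with high levels occurred on both days for these last 3 genes.

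Day 29 was also compared with day 8 in the females given 300 or 500 mkd acetamide for 7 or 28 days. These rats share no animal with the vehicle groups. Each dose alone gave 0 called genes with edgeR, beside 1330 (12.2% of 10938) and 1759 (15.9% of 11036) with an unadjusted p under 0.05, and DESeq2 called 43 (0.346%) and 213 (2.01%). The 60-rat fit called 0 and 19 (0.163%). The 20 rats together, with dose as a covariate, gave 207 genes, 1.86% of 11145, with 75 higher and 132 lower on day 29. Of these, 202 were tested in vehicle females, and 191 (94.6%) had the same direction there, against 69.9% of all 10870 genes tested in both. An unadjusted p under 0.05 in the same direction was found for 93 of them (46.0%), and 27 (13.4%) had the same direction without overlap between days. Of all 10870 genes, 1514 had such a p in the same direction, and 278 had the same direction without overlap. Such a p in either direction was found for 15.0% of all genes tested in vehicle females. The median size of the 202 genes was 0.73 in the acetamide females and 0.56, in the direction of those rats, in vehicle females. The acetamide rats shared the collection days and the separate count tables with the vehicle rats, so this does not tell age from handling. Their days also differed in the length of acetamide treatment, and its part in the shared or opposite directions was not tested.

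All 24 most separated genes had the same direction in the acetamide females. So did 278 of the 298 genes whose days did not overlap (93.3%) and 69.9% of all genes tested in both. Of the 24, 8 were called in the acetamide females, against 1.86% of all genes tested there. Cxcl14 was higher by 1.98 in these females (adjusted p = 0.0189) and Apoa2 by 0.72 (0.036), while Nos1ap, Atxn1 and Erc1 differed by -0.94, -0.67 and -0.86. Mif, a cytokine-like tautomerase, had 28.4 to 41.4 CPM on day 8 and 49.7 to 70.2 CPM on day 29 in vehicle females (0.73 ± 0.14) and a log2 fold change of 0.62 in the acetamide females. Atf6, a sensor of endoplasmic reticulum stress, Trip11, a Golgi protein, and Dip2c had -0.86 ± 0.19, -1.02 ± 0.21 and -0.77 ± 0.17 in vehicle and -0.72, -0.81 and -0.70 in acetamide females. Col1a1 was at -0.99 there (adjusted p = 0.0111), and the matrix list at a median of -0.27, with 1 of its genes called. The list was at -0.47 at 300 mkd and -0.10 at 500 mkd. Col3a1 was at -0.96 ± 0.25 at 300 mkd and -0.02 ± 0.23 at 500 mkd, and at 500 mkd Col5a2 was at 0.03 ± 0.18 and Bgn at 0.40 ± 0.20. The insulin receptor was at -0.58 (adjusted p = 0.076) and Hspb1 at 0.61 (adjusted p = 0.0895). Opposite directions were seen for 11 genes, among them Abcb1b (0.89 ± 0.36 in vehicle, -1.48 in acetamide females) and the adhesion molecule Nrcam (1.56 ± 0.45 and -1.06). Cholesterol synthesis genes had a median of 0.69 in the acetamide females, with 7 of 25 called, against 1.86% of all genes. By dose their median was 0.30 at 300 mkd and 0.98 at 500 mkd, beside 0.24 in vehicle females.

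**Figure D5:**
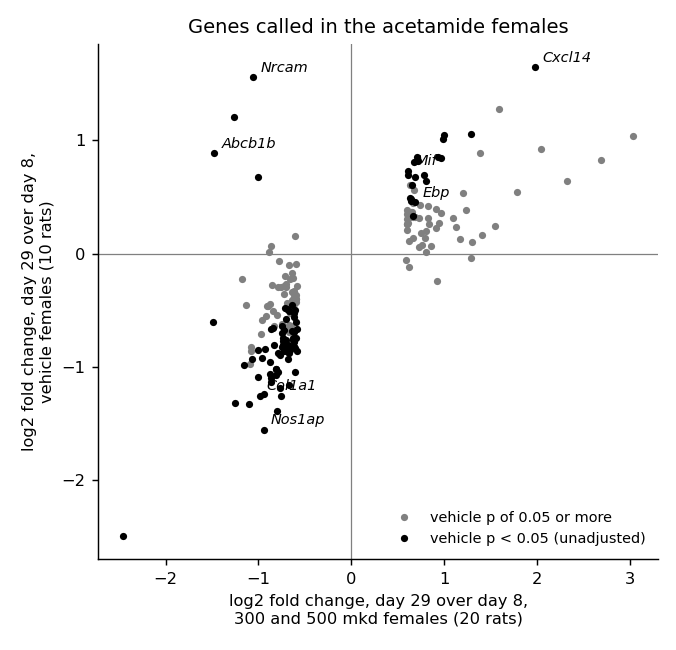
Log2 fold change, day 29 over day 8, of the 202 genes called in 300 and 500 mkd females (x axis, 20 rats) against the value in vehicle females (y axis, 10 rats); each point is a gene, black where the vehicle p was under 0.05 before adjustment. Of the 202 points, 191 lie in the quadrants of equal sign and 11, including Abcb1b and Nrcam, in the others.

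Vehicle males of the same experiment had 4 genes called between the days, 1 higher and 3 lower (0.0356% of 11224), and 1198 (10.7%) with an unadjusted p under 0.05, and DESeq2 called 23 (0.190%). The count in males was 2 (0.0140% of 14329) with no filter on low counts, 4 (0.0401% of 9964) with at least 10 counts in every rat and 1 (0.00877% of 11404) with the replicate number as a block. No gene was called for a different time change in males and females, tested as an interaction over the 20 vehicle rats; 1169 genes (10.4%) had an unadjusted p under 0.05, DESeq2 called 11 (0.0951%), and the lowest adjusted p was 0.124. Of the 24 most separated genes of females, 18 had the same direction in males. The share of all genes with the same direction in both sexes was not computed, so this count has no background. Sult1a1 was at 0.87 in females and -0.15 in males (interaction unadjusted p = 0.000704), Hspb1 at 2.08 and -0.14 (0.000748), Insr at -1.17 and -0.02 (0.000929) and Nos1ap at -1.56 and -0.17 (0.00131). These genes were named for their size in females, which favours a difference from males. The collagen and matrix list had a median of -0.43 in males, and Col3a1 was at -0.67 and Col1a1 at -0.94. Rps2 was lower in males by more, at -2.37.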

How the data were processed

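Counts were deposited by the authors as raw reads per gene, without normalization, for 17337 genes and 5 lines of reads on no gene, which were left out. Per the authors, single-end reads of stranded polyadenylated libraries were trimmed with Trimmomatic, aligned to Rn6 with Bowtie2 and counted with HTSeq, whose versions and strand setting are not given in the sources used here. Per-sample columns left out numbered 0.

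The tables of day 8 and day 29 were joined by symbol. The quasi-likelihood test of edgeR 4.0.16 in R 4.3.3 was fitted to the 10 rats, after TMM normalization and its filter on low counts, and a called gene needed a |fold change| of 1.5 or more with an adjusted p up to 0.05. CPM use TMM-scaled library sizes, and standard errors were taken from the fold change and its F statistic. DESeq2 1.42.0, the authors' tool, was an alternative. Both were tested on simulated data for this comparison over 10856 and 10891 genes: edgeR recovered 75 of 100 genes changed 2-fold and 99 of 100 changed 4-fold, DESeq2 84 and 99, with 9 and 28 false calls. Changed genes were drawn from the better expressed ones, and counts were drawn independently for each gene and rat. The simulation held no span gradient and no deviating rats, so these shares do not give the sensitivity in the real rats.

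Genes were to be named as the 12 largest called differences each way without overlap and at a mean of at least 1 CPM, and as list members by role; as 0 genes were called, the 12 each way were taken without the call. The rats and gene lists were chosen with earlier results of these data known, and of 708 listed symbols 673 were in the files. The added ribosomal, respiratory chain and V-ATPase lists were chosen by symbol pattern. Spans were matched for 98.6% of tested genes. Control males of day 29 carry the other experiment's label but a title and strain of this experiment, and were taken with it. The p-values describe separate rats.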

Additional observations from a re-analysis of the deposited data

Results flagged for a closer look

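Within each day, the highest or lowest rat was set against the other 4 for the named genes, on log2(CPM + 1), and for library measures (Dixon's criterion for 5 samples). Of 280 sets of 5 rats, 12 (4.29%) passed. Chance gives about 1 in 20, but several of these genes were named after their values were seen because single rats stood apart or the days did not overlap, so the share cannot be read against it. Day 29 rat 1 was highest for Aldh1a7 (61.2 CPM) and Fam111a (37.5 CPM) and lowest for Ubd (0.0718 CPM). Day 29 rat 3 was lowest for Ugt2b (0.337 CPM), Sult2a2 (0.599 CPM) and Dip2c (7.41 CPM). Day 29 rat 4 was highest for Hspa1a (80.5 CPM) and Egr1 (207 CPM), and day 29 rat 2 was lowest for Ndufb2 (51.2 CPM). On day 8, rat 3 was lowest for Asrgl1 (9.57 CPM), rat 1 for Dip2c (13.8 CPM), and rat 2 was highest for Nos1ap (7.46 CPM).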

How the results depend on the processing

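For vehicle females, 0 genes were called with DESeq2 size factors in edgeR, with no filter on low counts, with at least 10 counts in every rat, at a fold change of at least 2, with gene span offsets, and without day 29 rats 4 and 5. The count was 170 with DESeq2, 111 with all 60 female rats, 88 with the 20 vehicle rats of both sexes and 300 with the vehicle, 300 and 500 mkd rats and dose as a covariate. The settings with 20 rats, 30 rats, span offsets and the 2 rats left out were chosen after seeing the data. Leaving out each rat gave 0 to 1 calls (1 without day 8 rat 1 and 1 without day 29 rat 3). DESeq2 gave 43, 213, 11 and 23 calls for 300 mkd, 500 mkd, the sex difference and males, and the 60-rat fit 19 for 500 mkd. Leave-one-out ranges were 0 to 1, 0 to 36, 0 to 1 and 1 to 5, with 36 and 12 at 500 mkd without day 8 rat 2 and without day 29 rat 3. Males had 2 calls with no filter on low counts, and 2 or 1 without day 8 rats 4 or 5 or day 29 rats 2 to 5 of the males, or female day 8 rat 5 or day 29 rat 4. The cause of these differences was not tested.

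The labels do not tie equal replicate numbers to a shared litter or batch, and the numbers were not taken as pairs. Same-number deviations all correlated above 0, at 0.0768 to 0.300, over 0.1 in 4 of 5 pairs, and 4 of 10 rats correlated best with their own number. With a replicate block, 0 genes were called in vehicle females, at 300 mkd, at 500 mkd and for the sex difference, and 1 in males; Per1 was at 0.57 and Cyp2c12 at -0.0083.

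Of 2571 alternative values for 129 named genes, 21 reversed direction and 151 passed both criteria, and 116 genes never reversed. Without day 29 rats 4 and 5, Fos was at -0.31, Jun at -0.29, Atf3 at -1.48, Nr4a1 at -1.24, Egr1 at -0.33, Chac1 at -0.82 and Cyp2c12 at -0.30. With the 30 rats, Dbp was at 0.33, Cyp2c12 at -0.15, Abcb1b at -0.76 and Nrcam at -0.28. Leaving out each rat gave ranges across 0 for Egr1 (-0.19 to 1.60), Per1 (-0.87 to 0.37), Dbp (-0.81 to 0.0067), Cyp2c12 (-0.15 to 0.22), Mki67 (-0.34 to 0.034) and Aldh1a7 (-0.0058 to 5.62). Differences under 2-fold were not simulated, and a missed threshold does not show equal levels.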

Other observations

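V-ATPase subunit genes were a list chosen after the data were seen. Of 17 tested, 6 (35.3%) were higher on day 29 and 1 (5.88%) lower with an unadjusted p under 0.05, against 7.10% and 7.95% of all genes. The list median log2 fold change was 0.27 in vehicle females, -0.01 in the 300 and 500 mkd females and -0.06 in vehicle males. Of the exocrine pancreas markers, Prss1, Prss2, Pnlip and Amy2a3 were at 0 in every rat. Summed neutrophil markers were 1.10 to 4.27 CPM on day 8 and 1.32 to 5.50 CPM on day 29, and summed B and plasma cell markers 1.58 to 2.67 and 1.17 to 3.63 CPM. Summed erythroid markers were 35.9 to 99.2 and 71.0 to 242 CPM, with Hba1 and Gata1 at 0. Summed adipocyte markers were 13.6 to 18.8 and 15.1 to 22.6 CPM, with Lep at 0.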
